A study of Homo sapiens with 6 samples.

Results

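The nuclear genes for complexes III, IV and V of the mitochondrial inner membrane were taken from a gene count table by their symbols. The pattern *UQCR* with a subunit suffix gave 8 genes of complex III. The pattern *COX* with a number, a letter and an isoform digit gave 14 subunit genes and 9 assembly factor genes of complex IV. The pattern *ATP5* gave 18 genes of complex V and *ATP5IF1*, the gene of its inhibitor, so that 50 of the 59050 symbols in the table were members. Another 45 rows of the same stems end as pseudogenes and were left out; their counts summed to between 19 and 34 in a library.

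The RNA-seq data came from the established human embryonic stem cell line HUES8, with 2 libraries for each of 3 stages. PSC libraries came from undifferentiated cells kept in mTeSR1 on Matrigel. D2 libraries came from day 2 of differentiation and DE libraries from definitive endoderm, whose labels name no day. Both differentiated stages were grown in DMEM-F12 with 0.2% BSA and received 100 ng/mL of activin A, a ligand of the TGF-beta family, and for the first 24 h also CHIR99021, which inhibits GSK3 and so switches on WNT signaling. HUES8 is a single line. The RNA came from material remaining after metabolites had been taken out of the cells, and how the 2 libraries of a stage relate to separate cultures is not given in the sources used here, so p-values measure the spread between these libraries, which may be technical. All 8 markers fixed for definitive endoderm, among them *SOX17* and *FOXA2*, were higher in DE than in PSC (edgeR's quasi-likelihood test, Benjamini-Hochberg adjusted p under 0.05). Of the 8 pluripotency markers 6 were lower, and *LIN28A* and *TDGF1* were higher. In bulk RNA, fewer cells of a type and less RNA per cell cannot be told apart.

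Complex III passes electrons from ubiquinol to cytochrome c, complex IV passes them from cytochrome c to oxygen, and both pump protons across the inner membrane. Complex V lets the protons back and makes ATP with a rotating ring of c subunits, a head that carries the catalytic sites and a peripheral stalk that holds the head still. Complex III has a single subunit that mtDNA encodes and complexes IV and V have a few, while nuclear genes encode all others, and several complex IV subunits exist as a widely expressed form and a form of heart, skeletal muscle, testis or other tissues.

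Total counts were 12351684 and 15849872 in PSC, 15000970 and 14843365 at D2, and 15490713 and 15970973 in DE, given here and below for replicate 1 and then replicate 2. The members took between 0.517% and 0.607% of the counts of a library. Levels are given as CPM, the counts relative to the size of the library after scaling by TMM factors, and a member was called when its adjusted p was under 0.05 in a joint edgeR fit of the 6 libraries. Of the 50 members, 45 passed the filter on low counts. The other 5 were *COX6A2*, *COX7B2*, *COX8C*, *COX6B2* and *ATP5MGL*. Chromosome positions are those of GENCODE version 44 on GRCh38.

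The DE libraries stood apart from each other on these genes. All 35 tested subunits and the inhibitor, 36 genes in all, were higher in DE replicate 2 than in DE replicate 1, by a median of 0.28 on the log2 scale. Among the 9 complex IV assembly factors, 2 were higher in replicate 2, and their median difference was -0.18. Of the 37 complex I subunits 32 were higher in replicate 2, and of all 8683 genes above 10 CPM 49.6% were. That share was 72.1% among the shortest of those genes (the lowest of 4 equal classes by length) and 35.8% among the longest. Between the D2 libraries these shares ran the other way, at 33.5% and 67.4%, and between the PSC libraries they were 43.6% and 49.4%. In PSC 12 of the 45 tested members were higher in replicate 2, and at D2 16 were. The part of this difference in the results was not tested, and the counts of DE calls for all members and for each complex are therefore also given without either DE library.

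Across the 3 comparisons the members moved by small amounts. In DE against PSC, 17 members were higher and 6 were lower of 45 tested, which is 51.1%, against 67.8% of all 18126 genes tested (35.1% higher and 32.7% lower). Their median log2 fold change was 0.08, and that of all genes was 0.02. In D2 against PSC, 6 were higher and 7 were lower, or 28.9% of the members against 49.9% of all genes (25.9% higher and 24.0% lower), with a median of 0.06. In DE against D2, 13 were higher and 7 were lower, or 44.4% against 59.3% of all genes (30.0% higher and 29.3% lower), with a median of 0.12. The members' share of calls was below the background in each comparison. In TPM, computed from counts and gene lengths, the median was 0.32 for the members and 0.32 for all genes above 2 TPM in DE against PSC. These medians were 0.20 and 0.12 in D2 against PSC, and 0.21 and 0.18 in DE against D2. The 3 comparisons share libraries pairwise and are not independent of each other. A fold change of at least 2 was reached by 5 members in DE against PSC, 4 higher and 1 lower, whereas 20.5% and 18.8% of all genes reached it in these directions, or 39.4% in all. In D2 against PSC 0 members reached it, against 14.3% of all genes higher and 8.03% lower (22.3% in all), although edgeR called 13 members and DESeq2 called 11 without the limit on fold. In DE against D2 the limit was reached by *UQCRC1* and *COX19*, both higher, against 12.4% of all genes higher and 16.1% lower (28.5% in all).

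The split between higher and lower depended on the scaling and on the DE libraries. With upper-quartile scaling, which moved the median log2 fold change of all genes in DE against PSC to -0.15, 6 members were higher and 10 were lower, beside 29.7% and 38.5% of all genes. In DE against D2, where the same scaling moved that median to -0.19, 6 were higher and 12 were lower, beside 23.5% and 37.1%. Scaling by library size gave 12 higher and 5 lower in D2 against PSC, with a median of all genes of 0.13 and 29.5% and 17.7% of all genes called. Without DE replicate 2 the calls in DE against PSC were 10 higher and 9 lower, and without DE replicate 1 they were 19 higher and 5 lower, beside 31.5% and 28.2% of all genes in the first case and 31.6% and 28.2% in the second. Without PSC replicate 2 they were 10 higher and 7 lower, beside 30.1% and 27.3%. In DE against D2 they were 6 higher and 11 lower without DE replicate 2, and 18 higher and 6 lower without DE replicate 1, beside 26.0% and 23.7%, and 26.3% and 23.8%, of all genes. Some members with no call in the 6 libraries gained one in this way. In DE against PSC, *UQCRFS1*, *COX6B1*, *ATP5F1A* and *ATP5F1B* were called higher without DE replicate 1, and *COX5B*, *COX7C* and *ATP5MC2* lower without DE replicate 2. In DE against D2, *COX6A1*, *COX6B1*, *COX7A2*, *COX8A*, *ATP5MPL* and *ATP5IF1* were called higher without DE replicate 1, and *COX5B*, *COX6C*, *ATP5F1C*, *ATP5MC1* and *ATP5PF* lower without DE replicate 2. Under the 18 settings run, 11 of the 23 members called in DE against PSC were called in every setting that tested them, and these were *UQCRC1*, *COX5A*, *COX7A1*, *COX17*, *COX19* and *ATP5F1E* among the higher and *UQCRH*, *COX18*, *COX20*, *ATP5MC1* and *ATP5PD* among the lower.

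**Figure D1:**
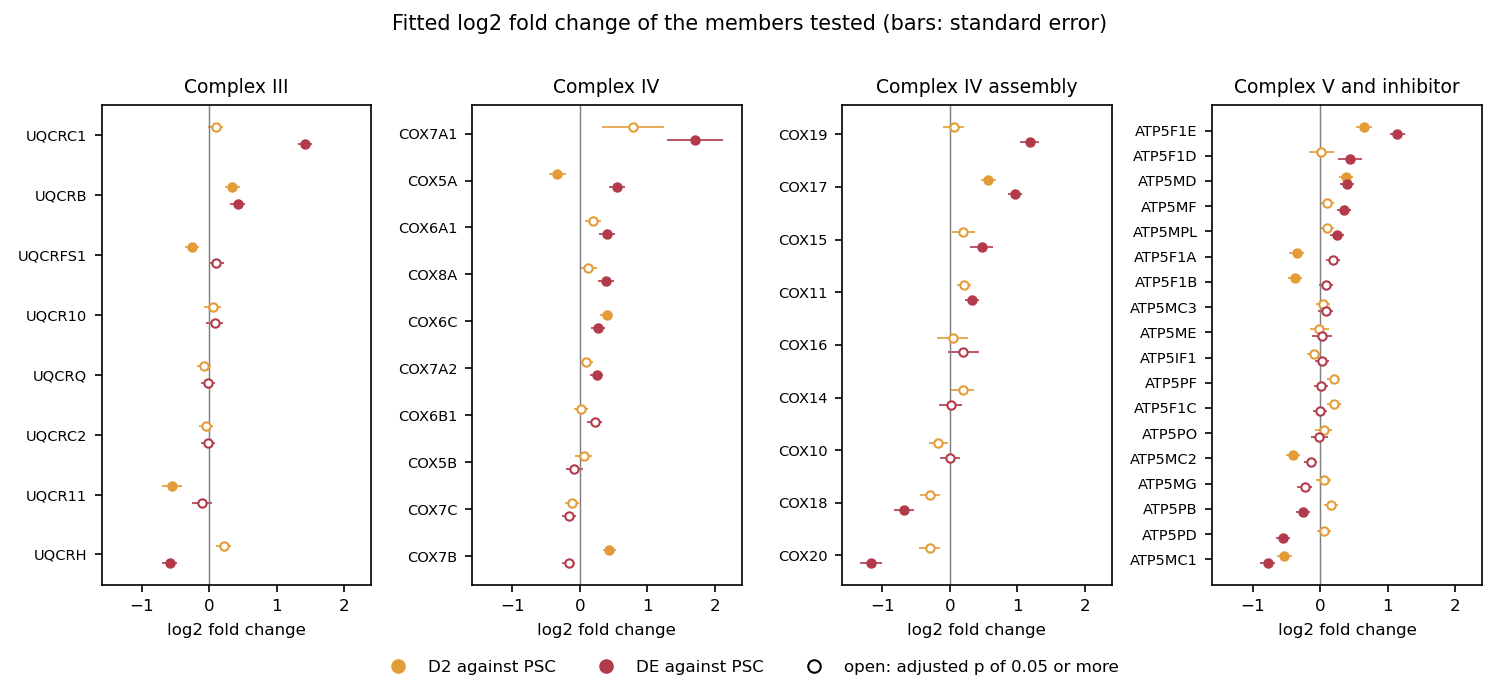
Fitted log2 fold change (horizontal axis) of the 45 tested members against PSC, in 4 panels by complex, with bars for the standard error; orange points are D2 and red points are DE, and open points have an adjusted p of 0.05 or more. Most points lie within 0.5 of zero, *UQCRC1*, *COX19*, *ATP5F1E* and *COX7A1* stand to the right of 1 in DE, and *COX20* stands to the left of -1.

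The calls in DE against PSC were then counted by complex, beside the 35.1% higher and 32.7% lower of all genes. In complex III 2 genes were higher and 1 was lower of 8, with a median log2 fold change of 0.03, and these counts were 3 and 1 without DE replicate 1 and 2 and 1 without DE replicate 2. In complex IV 6 subunits were higher and none was lower of the 10 tested, with a median of 0.26. Without DE replicate 1, 7 were higher and none lower of the 11 then tested, and without DE replicate 2, 2 were higher and 2 lower of 11. The calls of *COX6A1*, *COX6C*, *COX7A2* and *COX8A* among these 6 were lost without DE replicate 2 and under upper-quartile scaling. That of *COX7A2* was made in 10 of the 18 settings. It was also lost with a block for the replicate number (the replicate block), without PSC replicate 1 and with the 2 stages alone. Without PSC replicate 2, the calls of *COX6C*, *COX7A2* and *COX8A* were lost. With a correction for gene length, those of *COX6C* and *COX7A2* were lost. Among the complex IV assembly factors 4 were higher and 2 lower of 9, with 2 and 2 without DE replicate 1 and 4 and 2 without DE replicate 2. In complex V 5 were higher and 3 lower of 17, with a median of 0.03. These were 7 and 2 without DE replicate 1, and 2 and 4 without DE replicate 2. No test compares the complexes with each other, since genes are not replicates of a complex.

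The summed level of each complex stayed close to its PSC level. Complex III subunits summed to 1374 and 1259 CPM in PSC, 1502 and 1443 at D2, and 1263 and 1518 in DE. Complex IV subunits summed to 1014 and 959 CPM in PSC, 1094 and 1028 at D2, and 935 and 1148 in DE. Complex V subunits summed to 2948 and 2714 CPM in PSC, 2870 and 2687 at D2, and 2617 and 3140 in DE. In each complex the DE libraries lay on both sides of the PSC mean, and the ratio of the DE to the PSC mean was 1.06, 1.06 and 1.02 for complexes III, IV and V. With the mean CPM per kilobase of gene length in place of the sum, these ratios were 0.867, 1.1 and 1.02. By that measure both DE libraries of complex III (50.8 and 61.6) lay below its PSC mean of 64.8. The sum over the 9 assembly factors was 193.6 and 177.8 CPM in PSC, 216.4 and 212.9 at D2, and 249.5 and 248.9 in DE, and the stages did not overlap. *COX17* and *COX11*, the most abundant of them, carried most of that sum.

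Among the genes of complex III, *UQCRC1*, which encodes a core subunit of the matrix arm, rose the most. Its level was 39.2 and 42.6 CPM in PSC, 45.6 and 41.3 at D2, and 101.2 and 117.1 in DE. The PSC and D2 libraries overlapped, and both DE libraries stood far above them. The log2 fold change of DE over PSC was 1.41 ± 0.104 (standard error; edgeR's quasi-likelihood test, adjusted p = 1.5e-12), and of DE against D2 it was 1.33 ± 0.102 (adjusted p = 8.7e-12). *UQCRC1* lies at chr3:48599002-48610976 on the minus strand. *UQCRC2*, the gene of the other core subunit, ranged from 198.9 to 231.9 CPM and was called in no comparison.

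*UQCRH*, the hinge protein that helps cytochrome c dock, fell. It had 449.8 and 407.7 CPM in PSC, 498.9 and 490.2 at D2, and 254.3 and 315.0 in DE, so that the DE libraries lay below all others. The log2 fold change was -0.59 ± 0.109 against PSC (edgeR, adjusted p = 2.8e-05) and -0.80 ± 0.109 against D2 (adjusted p = 4.7e-07). Per kilobase of the deposited gene length it was the most abundant gene of complex III, with a mean of 300.3 CPM per kb. *UQCRHL*, an intronless copy outside the symbol rule, shares 98.6% of its aligned coding bases with *UQCRH*, with an identical run of 157 bases, and how reads that map to both were counted is not given in the sources used here, so the level of *UQCRH* is uncertain. *UQCRHL* itself had 14.2 and 14.1 CPM in PSC, 16.9 and 19.5 at D2, and 9.18 and 11 in DE, with a log2 fold change against PSC of -0.48 ± 0.148 in DE (edgeR, adjusted p = 0.0054), a call lost without DE replicate 1.

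*UQCRB*, the gene of a small subunit beside the ubiquinone site, was higher at both later stages, with a log2 fold change of 0.34 at D2 and 0.42 in DE against PSC. The D2 call was lost without PSC replicate 2 or D2 replicate 1, and the DE call under upper-quartile scaling. *UQCRFS1*, the Rieske iron-sulfur protein, dipped at D2, with 78.8 and 79.2 CPM in PSC, 65.3 and 66.2 at D2, and 72.8 and 96.5 in DE. Its D2 call (log2 fold change -0.26, edgeR, adjusted p = 0.046) was lost without any of the 4 PSC and D2 libraries. It was also lost under DESeq2, with library size scaling and with the replicate block. *UQCR11*, the gene of a small accessory subunit, dipped as well: 15.5 and 15.0 CPM in PSC, 9.17 and 11.5 at D2, and 13.4 and 14.8 in DE. This gave a log2 fold change of -0.56 ± 0.148 in D2 against PSC (edgeR, adjusted p = 0.0025), the lowest of all members, and 0.45 in DE against D2. The first of these calls was lost without D2 replicate 1. The second was lost without D2 replicate 1 or DE replicate 2, under DESeq2 and under upper-quartile scaling. *UQCR10* and *UQCRQ* were called in no comparison either. *CYC1*, the cytochrome c1 gene that the symbol rule leaves out, rose from 28.8 and 32.0 CPM in PSC to 52.7 and 53.1 in DE, a log2 fold change of 0.79 ± 0.105 (edgeR, adjusted p = 1.7e-07).

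**Figure D2:**
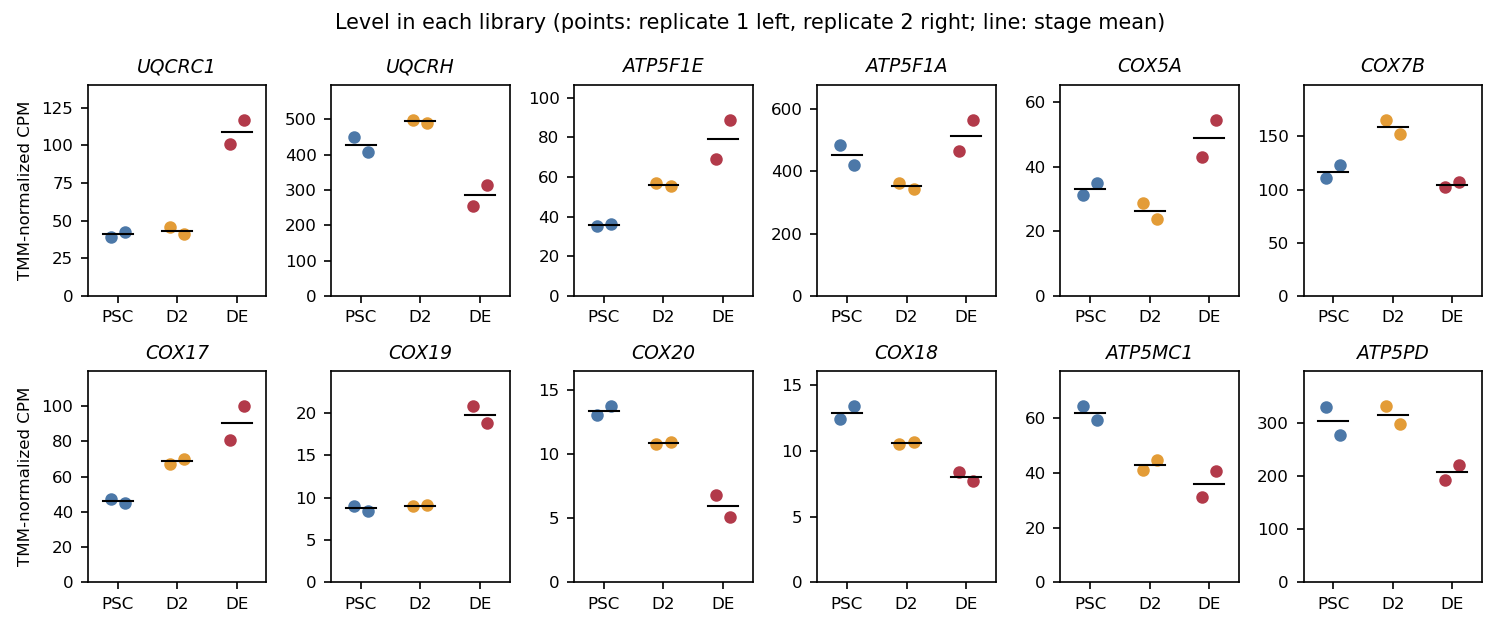
TMM-normalized CPM (vertical axis, from 0) of 12 members in each library, with 1 panel per gene, replicate 1 on the left and replicate 2 on the right of each stage, and a line at the stage mean. *UQCRC1* and *COX19* are high in DE alone, *ATP5F1E* and *COX17* climb at each stage, *COX7B* is high at D2, *ATP5F1A* and *COX5A* are low at D2, and *COX20*, *COX18* and *ATP5MC1* step down.

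In complex IV, the nuclear subunits surround the catalytic core that mtDNA encodes. *COX5A*, whose subunit belongs to the first assembly steps around the core, had 31.2 and 35.0 CPM in PSC, 28.8 and 23.8 at D2, and 43.1 and 54.5 in DE. The D2 libraries were the lowest and the DE libraries the highest of the 6. The log2 fold change was -0.33 ± 0.125 in D2 against PSC (edgeR, adjusted p = 0.028) and 0.55 ± 0.12 in DE against PSC (adjusted p = 0.00021). The first of these calls was lost under DESeq2, with library size scaling and with the replicate block. It was also lost without PSC replicate 2 or D2 replicate 2.

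*COX7B*, an X-linked accessory subunit gene, showed the reverse order. It had 110.8 and 123.0 CPM in PSC, 165.7 and 152.2 at D2, and 102.4 and 106.9 in DE, with the D2 libraries above all others. It rose by 0.44 ± 0.0956 on the log2 scale in D2 against PSC (edgeR, adjusted p = 0.00035) and then fell, with a change of -0.60 ± 0.0955 from D2 to DE (adjusted p = 4.5e-06). *COX6C* was higher at both later stages, with a log2 fold change of 0.40 at D2 and 0.27 in DE. The most abundant subunit gene per kilobase, *COX7C*, with a mean of 138.5 CPM per kb, ranged from 240.0 to 310.7 CPM and was called in no comparison, like *COX5B* and *COX6B1*. *COX6A1*, *COX7A2* and *COX8A* were called only in DE against PSC, with log2 fold changes of 0.40, 0.25 and 0.39.

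In DE against PSC, apart from *UQCRC1* and *COX7A1*, the highest and the lowest log2 fold change of all tested members belonged to assembly factors of complex IV, *COX19* and *COX20*. *COX17* and *COX19* encode small cysteine-rich proteins of the intermembrane space, the first of which hands copper to the factors that load the core. *COX17* had 47.3 and 45.2 CPM in PSC, 67.3 and 70.0 at D2, and 80.5 and 99.9 in DE, a step at each stage without overlap. Its log2 fold change was 0.57 ± 0.107 at D2 (edgeR, adjusted p = 6.3e-05) and 0.96 ± 0.106 in DE against PSC (adjusted p = 5.8e-09). *COX19* had 9.01 and 8.48 CPM in PSC, 8.97 and 9.17 at D2, and 20.8 and 18.8 in DE. Its log2 fold change was 1.18 ± 0.143 in DE against PSC (edgeR, adjusted p = 3.6e-08) and 1.12 ± 0.139 against D2 (adjusted p = 8.8e-08), and the PSC and D2 libraries overlapped.

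*COX18* and *COX20* encode inner membrane proteins that handle the newly made COX2 subunit, and both fell. *COX20* had 13.0 and 13.7 CPM in PSC, 10.8 and 10.9 at D2, and 6.81 and 5.07 in DE. The log2 fold change was -1.17 ± 0.165 in DE against PSC (edgeR, adjusted p = 5.5e-07) and -0.86 ± 0.167 in DE against D2 (adjusted p = 7.1e-05). *COX18* had 12.4 and 13.4 CPM in PSC, 10.5 and 10.7 at D2, and 8.39 and 7.71 in DE, with a log2 fold change against PSC of -0.68 ± 0.152 in DE (edgeR, adjusted p = 0.00027). Neither gene's stages overlapped. *COX11*, a copper factor, and *COX15*, an enzyme of heme A synthesis, were higher in DE with log2 fold changes of 0.33 and 0.47. Both calls were lost without PSC replicate 2 or DE replicate 1 and under upper-quartile scaling, and that of *COX15* also under DESeq2. *COX10*, the heme O synthase gene, *COX14* and *COX16* were not called.

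Of the 50 members, 29 overlap another annotated gene, 14 of them on the same strand, and the strand setting of the counting is not given in the sources used here. *ADAP1*, which overlaps *COX19*, had between 2 and 12 counts in a library, beside 103 to 342 for *COX19*. *POPDC2*, which overlaps *COX17*, had 109 counts over the 6 libraries beside 6235. *HNRNPU*, on the other strand from *COX20*, had 6391 to 9429 counts in a library, so reads from *HNRNPU* within *COX20* cannot be told apart from its own. The 466 counts of *COX16* stand beside 3135 of *SYNJ2BP* on the same strand. On the other strand, the 845 counts of *COX15* stand beside 2214 of *CUTC* and 1143 of *ENTPD7*. *CUTC* had 248 and 273 counts in PSC and 431 and 421 in DE, and *ENTPD7* 116 and 187, and 307 and 243. The 6890 counts of *COX11* stand beside 6506 of *TOM1L1*, also on the other strand.

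Other complex IV factors from a list of 22 outside the symbol rule moved in both directions in DE against PSC, with 8 higher and 5 lower of 21 tested, beside the background of 35.1% and 32.7%, with 9 and 4 without DE replicate 1 and 5 and 5 without DE replicate 2. *HIGD1A*, a hypoxia-inducible inner membrane protein, had 148.9 and 139.4 CPM in PSC, 183.7 and 191.5 at D2, and 380.9 and 382.1 in DE, a log2 fold change of 1.40 ± 0.0974 (edgeR, adjusted p = 4.4e-13). *CMC1*, a copper-related factor, had 14.7 and 13.7 CPM in PSC, 25.1 and 25.2 at D2, and 26.7 and 30.7 in DE, a log2 fold change of 1.02. *PET117* had 1.84 and 0.835 CPM in PSC, 1.96 and 1.16 at D2, and 2.37 and 3.15 in DE, and its call (1.10) was lost under DESeq2 and without PSC replicate 2 or DE replicate 2. *LRPPRC*, which stabilizes mtDNA-encoded mRNAs, had 295.7 and 298.7 CPM in PSC, 219.0 and 213.2 at D2, and 163.8 and 183.2 in DE, with a log2 fold change of -0.78 ± 0.0971 (edgeR, adjusted p = 6.3e-08). The D2 libraries of *LRPPRC* lay between those of PSC and DE. *TIMM21*, with a log2 fold change of -0.80, had 25.1 and 26.5 CPM in PSC, 25.2 and 28.7 at D2, and 13.6 and 16 in DE. *TMEM177*, with -0.66, had 8.13 and 6.74 CPM in PSC, 4.78 and 3.55 at D2, and 4.74 and 4.62 in DE, and its call was lost without PSC replicate 1. Among subunits outside the rule, *COX7A2L*, which joins complex III and IV into supercomplexes, had 125.5 and 112.8 CPM in PSC, 138.0 and 142.0 at D2, and 160.2 and 190.7 in DE, a log2 fold change of 0.56. *NDUFA4* had 249.3 and 242.8 CPM in PSC, 263.2 and 246.6 at D2, and 198.6 and 212.8 in DE, and its call (-0.26) was lost without either PSC library or DE replicate 1. *COX4I1* had a log2 fold change of 0.23 that was not called (edgeR, adjusted p = 0.075), but was called without DE replicate 1, with library size scaling and without the filter on low counts, and ranged from 0.05 to 0.42 without 1 library at a time. The somatic cytochrome c gene *CYCS* fell from 621.1 and 560.8 CPM in PSC to 305.3 and 313.9 in DE, a log2 fold change of -0.93 ± 0.104 (edgeR, adjusted p = 7.2e-09).

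Complex V was examined by its parts. In the catalytic head, the subunit genes alpha and beta, *ATP5F1A* and *ATP5F1B*, were low at D2. *ATP5F1A* had 483.2 and 419.8 CPM in PSC, 364.0 and 344.3 at D2, and 464.5 and 565.8 in DE, with log2 fold changes of -0.35 ± 0.111 in D2 against PSC (edgeR, adjusted p = 0.01) and 0.54 ± 0.111 in DE against D2 (adjusted p = 0.00014). *ATP5F1B* was the most abundant complex V gene per kilobase of deposited length, at 156.8 CPM per kb. By the length of the canonical transcript *ATP5MF* was the most abundant, at 508.8 CPM per kb. *ATP5F1B* had 362.1 and 379.7 CPM in PSC, 291.8 and 280.7 at D2, and 353.3 and 437.3 in DE. Neither was called in DE against PSC with the 6 libraries, although both were called higher without DE replicate 1 and *ATP5F1A* also with library size scaling and a correction for gene length, and without 1 library at a time the log2 fold change of *ATP5F1A* ranged from 0.06 to 0.34 and that of *ATP5F1B* from -0.06 to 0.25. The D2 libraries were below all others for both genes, and the D2 calls of both were lost without D2 replicate 2, that of *ATP5F1A* also without PSC replicate 1.

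The epsilon subunit gene *ATP5F1E*, on the central stalk of the head, rose throughout. It had 35.1 and 36.5 CPM in PSC, 56.8 and 55.3 at D2, and 69.1 and 88.9 in DE. The log2 fold change was 0.65 ± 0.113 at D2 (edgeR, adjusted p = 2.4e-05) and 1.14 ± 0.111 in DE against PSC (adjusted p = 5.7e-10). The gamma subunit gene *ATP5F1C* was called in no comparison, and *ATP5F1D*, the delta subunit gene, was higher in DE by 0.44, a call made in 9 of the 18 settings and lost, among others, under DESeq2, under upper-quartile scaling, without either PSC library and without DE replicate 2. In DE against D2, 4 of the 5 head genes were higher and none was lower, beside 30.0% higher and 29.3% lower of all genes. Without DE replicate 2, 3 were higher and 1 was lower, and the call of *ATP5F1D* was lost.

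In the peripheral stalk 2 of the 4 genes fell in DE against PSC and the same 2 against D2, beside 32.7% and 29.3% of all genes lower. *ATP5PD*, the d subunit gene, had 329.1 and 275.9 CPM in PSC, 330.6 and 298.0 at D2, and 192.6 and 220.5 in DE, with a log2 fold change against PSC of -0.55 ± 0.107 in DE (edgeR, adjusted p = 5.6e-05) and -0.61 ± 0.107 against D2 (adjusted p = 2.1e-05). Both DE libraries lay below all others. *ATP5PB*, the b subunit gene, fell by less, with log2 fold changes in DE of -0.25 against PSC and -0.42 ± 0.102 against D2 (edgeR, adjusted p = 0.001 for the second). The call against PSC was lost without either D2 library, PSC replicate 1 or DE replicate 1. It was also lost with library size scaling and with the replicate block. *ATP5PF* and *ATP5PO*, the other stalk genes, were not called. None of the 4 stalk genes was higher in DE in any comparison, but the difference between head and stalk was not tested.

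Of the 8 membrane genes tested, 3 were higher and 1 was lower in DE against PSC, beside 35.1% and 32.7% of all genes, and 1 was higher and 2 were lower without DE replicate 2. *ATP5MD* and *ATP5MF* were higher by 0.40 and 0.35 on the log2 scale, and *ATP5MPL* by 0.25. All of these 3 calls were lost under upper-quartile scaling, and those of *ATP5MF* and *ATP5MPL* also without DE replicate 2. That of *ATP5MPL* was made in 9 of the 18 settings. It was lost, among others, under DESeq2, with the replicate block and without either PSC library. *ATP5MG*, the g subunit gene, was lower in DE than at D2, with a log2 fold change of -0.27, a call lost under DESeq2, without the filter on low counts and without D2 replicate 1 or DE replicate 1. *ATP5ME*, between 12.5 and 15.9 CPM, was not called. The inhibitor gene *ATP5IF1*, whose protein blocks the reverse reaction of complex V, ranged from 139.9 to 174.6 CPM and was called in no comparison. Of 5 tested genes from a separate fixed list of assembly and associated factors of complex V, 4 were higher and 1 was lower in DE against PSC. The counts were the same without either DE library, and 35.1% and 32.7% of all genes were called in these directions. *ATPAF2*, a chaperone of the alpha subunit, rose from 4.64 and 5.72 CPM in PSC to 33.1 and 32.5, and *ATPAF1*, a chaperone of the beta subunit, from 19.4 and 19.4 to 46.4 and 45.1. *TMEM70*, which helps build the c ring, ranged from 18.2 to 20.2 CPM over the PSC and D2 libraries and had 30.9 and 30.0 in DE. *DMAC2L*, the lower one, had 29.9 and 26.7 CPM in PSC and 10.6 and 10.7 in DE.

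The c ring is built from one mature protein that 3 genes encode, *ATP5MC1*, *ATP5MC2* and *ATP5MC3*, which differ in the import sequence that is cut off. The 75 codons before the stop give the same residue at all 75 positions in the 3 genes, while 81.3% to 88.9% of the 225 bases are the same between any 2 of them. The following 90 coding bases, read from GENCODE version 44 transcripts, show how the genes can be told apart by reads although the protein is the same. They begin at the codon 75 from the end, and capitals mark the 19 positions at which the 3 genes are not all alike.
ATP5MC1: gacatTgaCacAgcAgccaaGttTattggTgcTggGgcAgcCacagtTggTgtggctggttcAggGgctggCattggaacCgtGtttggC
ATP5MC2: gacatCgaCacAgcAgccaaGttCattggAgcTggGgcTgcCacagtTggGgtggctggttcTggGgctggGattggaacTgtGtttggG
ATP5MC3: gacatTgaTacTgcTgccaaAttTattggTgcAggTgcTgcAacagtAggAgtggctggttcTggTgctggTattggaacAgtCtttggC
The genes lie on chromosomes 17, 12 and 2, and the longest identical run between any 2 of the transcripts was 17 bases.

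The 3 c-ring genes had different results, although the differences between them were not tested. *ATP5MC1* had 64.2 and 59.2 CPM in PSC, 40.9 and 44.6 at D2, and 31.3 and 40.7 in DE. Its log2 fold change was -0.53 ± 0.112 at D2 (edgeR, adjusted p = 0.00028) and -0.78 ± 0.113 in DE against PSC (adjusted p = 7.9e-07), with both later stages below PSC. *ATP5MC2* had 180.2 and 178.2 CPM in PSC, 138.3 and 133.3 at D2, and 145.8 and 178.8 in DE, which gave a log2 fold change of -0.40 ± 0.101 at D2 (edgeR, adjusted p = 0.0017) and no call in DE against PSC. *ATP5MC3*, between 181.5 and 224.1 CPM, was called in no comparison. By counts per kilobase of deposited gene length, the share of *ATP5MC1* among the 3 was 24.3% ± 0.305 (SD, n = 2) in PSC, 20.5% ± 1.75 at D2 and 16.2% ± 0.621 in DE. That of *ATP5MC3* was 29.4% ± 1.4, 36.9% ± 1.61 and 35.7% ± 0.511, and that of *ATP5MC2* was 46.3% ± 1.71, 42.6% ± 0.14 and 48.0% ± 0.11. The stages did not overlap for *ATP5MC1*. With 2 libraries against 2 an exact permutation test cannot give a p below 0.33, and no test of any kind was made of these shares. The deposited gene length, whose making is not given in the sources used here, is a median of 2.03 times the length of the canonical transcript over the members, and is the shorter of both for *COX8C* and *COX15*. With the canonical length the *ATP5MC1* share was 21.0% in PSC and 14.2% in DE, and that of *ATP5MC2* was 62.5% and 65.6%. By counts with no length, the *ATP5MC2* share moved the other way, from 41.2% in PSC to 40.2% in DE.

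**Figure D3:**
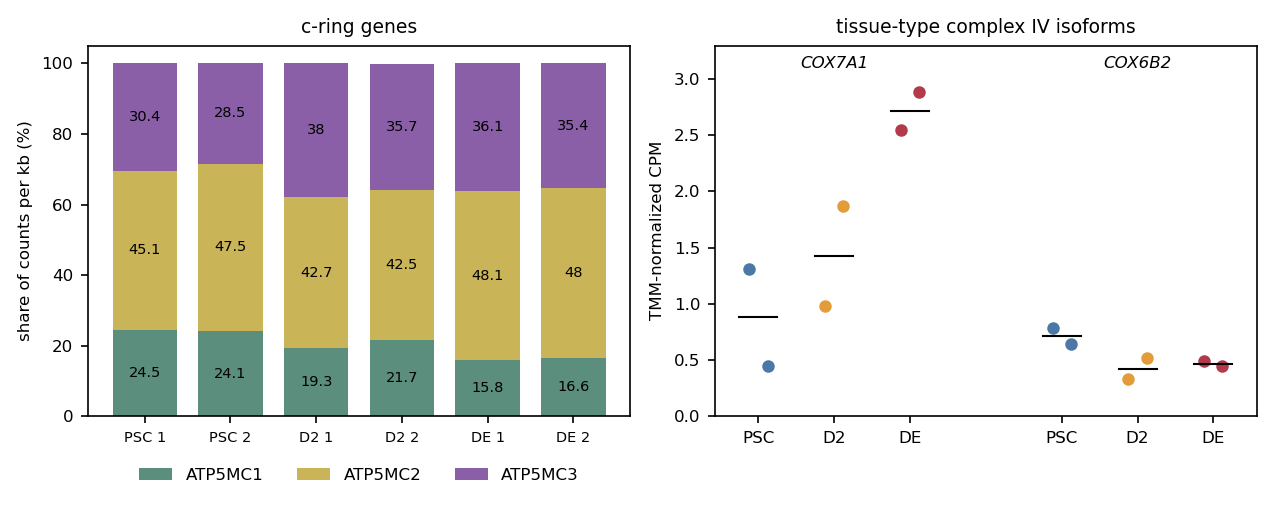
Left, share of counts per kb (%) of *ATP5MC1*, *ATP5MC2* and *ATP5MC3* in each library as stacked bars from 0 to 100; the *ATP5MC1* share is 24.5% and 24.1% in PSC and 15.8% and 16.6% in DE. Right, TMM-normalized CPM of *COX7A1* and *COX6B2* in each library, with lines at the stage means; both genes lie under 3 CPM throughout.

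The tissue-type isoforms of complex IV stayed far below the widely expressed forms. *COX6A2*, the heart and muscle form of subunit 6A, and *COX7B2* had no count in any library, which allows up to 3 counts, or 0.182 to 0.262 CPM, in each. *COX8C* had 5 counts in all, with at most 3 in a library. *COX6B2*, the testis form of subunit 6B, had 5 to 10 counts in a library. Its log2 ratio to *COX6B1*, by counts per kilobase, was -8.62 ± 0.213 (SD, n = 2) in PSC, -9.39 ± 0.532 at D2 and -9.42 ± 0.349 in DE. *COX4I2*, the form of subunit 4 known from lung, had 4 counts in all and lies outside the symbol rule. *ATP5MGL*, a copy of *ATP5MG*, had 1 count. The limits from 0 counts cover counting error only.

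*COX7A1*, the heart and skeletal muscle form of subunit 7A, passed the filter on low counts and was called, and it too stayed far below *COX7A2*. It had 15 and 7 counts in PSC, 15 and 29 at D2, and 42 and 45 in DE, or 1.31 and 0.45, 0.982 and 1.87, and 2.55 and 2.89 CPM. Both DE libraries lay above all others, and the PSC and D2 libraries overlapped. The log2 fold change was 1.71 ± 0.417 in DE against PSC (edgeR, adjusted p = 0.00074) and 0.92 ± 0.365 in DE against D2 (adjusted p = 0.032), and without 1 library at a time the first ranged from 1.05 to 2.58, with an adjusted p of up to 0.046. The second call was lost without D2 replicate 1 or either DE library, under DESeq2, under upper-quartile scaling and with the replicate block. The log2 ratio of *COX7A1* to *COX7A2*, the widely expressed form, was -5.40 ± 1.02 (SD, n = 2) in PSC, -4.71 ± 0.663 at D2 and -3.88 ± 0.0661 in DE. The PSC libraries alone were -4.67 and -6.12, so the rise of this ratio in DE is 0.80 or 2.24 when either PSC library is left out.

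Markers of cardiac and skeletal muscle moved in DE beside *COX7A1*. The 8 markers summed to 2.89 and 2.50 CPM in PSC, 11.3 and 9.95 at D2, and 41.0 and 47.7 in DE, and *MYL7*, an atrial myosin light chain, was the most abundant, with 37.3 and 44.0 CPM in DE. *ACTA1* was the other of the 3 tested markers that rose, and *ACTN2* fell. *MYH6* and *MYH7*, the cardiac myosin heavy chains, had at most 3 counts in every library, and *TNNT2*, *CKM* and *MB* stayed under 1 CPM. Whether muscle-like cells have a part in the level of *COX7A1* was not tested. The 5 germ line markers summed to 3.67 and 3.08 CPM in PSC and under 1 CPM in DE, with *DAZL* the most abundant. Markers of neuroectoderm summed to 108.2 and 98.0 CPM in PSC and 875.3 and 887.0 in DE, led by *OTX2*. *PAX6*, with 147.6 and 146.2 CPM in DE, and *NES* were higher as well, while *SOX1* had at most 3 counts in every library. Markers of trophoblast summed to 2.19 and 2.50 CPM in PSC and 101.1 and 85.0 in DE. *GATA3* made up 100.1 and 84.3 CPM of that DE sum, while *KRT7* was lower in DE than in PSC and *CDX2* and *TFAP2A* were not called. Their part in the subunit levels was not tested.

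The subunits that mtDNA encodes were far more abundant than their nuclear partners. *MT-CO1*, the catalytic core of complex IV, had 59257 and 53322 CPM in PSC, 40634 and 41469 at D2, and 36353 and 45360 in DE, with a log2 fold change against PSC of -0.46 ± 0.186 in DE (edgeR, adjusted p = 0.03). *MT-CO3* had 46654 and 42011 CPM in PSC and 29707 and 32393 in DE, a log2 fold change of -0.51 ± 0.178 (edgeR, adjusted p = 0.012). *MT-ATP8* of complex V had a log2 fold change of -0.54 ± 0.145 (edgeR, adjusted p = 0.0017). *MT-CO2* with 0.15, *MT-ATP6* with -0.30 and *MT-CYB*, the only complex III subunit of mtDNA, with 0.12 were not called (edgeR, adjusted p = 0.46, 0.11 and 0.5). The call of *MT-CO1* was lost without DE replicate 1, PSC replicate 1 or either D2 library, and that of *MT-CO3* without PSC replicate 1 or D2 replicate 1, and both were lost with the replicate block. The call of *MT-ATP8* was lost with a correction for gene length. *MT-CYB* was called higher without DE replicate 1, and *MT-ATP6* was called lower without DE replicate 2 and under DESeq2. All mtDNA-encoded genes together took 29.5% and 27.6% of the counts in PSC, 25.8% and 25.7% at D2, and 20.9% and 22.8% in DE.

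The level of nuclear against mtDNA-encoded subunits was therefore also taken within each library, where it does not depend on scaling between libraries. It is the log2 ratio of the mean CPM per kb of the nuclear genes to that of the mtDNA genes of the same complex. In complex IV it was -10.04 and -9.98 in PSC, -9.78 and -9.83 at D2, and -9.68 and -9.52 in DE, a rise of 0.40 from PSC to DE in which no stages overlapped, and of 0.10 with the median over the subunits in place of the mean. In complex V it was -8.75 and -8.62 in PSC, -8.54 and -8.43 at D2, and -8.22 and -8.30 in DE, a rise of 0.43, again without overlap. In complex III it was -7.19 and -7.04 in PSC, -6.87 and -6.86 at D2, and -7.40 and -7.49 in DE, which puts DE 0.33 below PSC. That difference has the opposite sign, 0.09, when the median over the subunits replaces the mean, in which *UQCRH* weighs the most. These ratios were not tested either, and the same limit of 0.33 on an exact p applies to them.

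**Figure D4:**
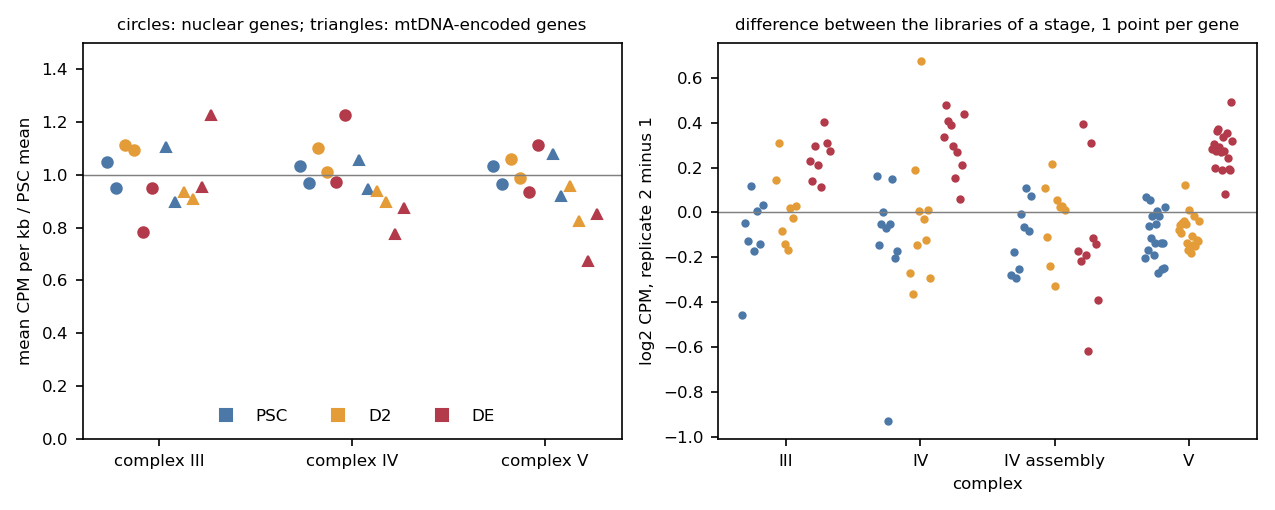
Left, mean CPM per kb of nuclear (circles) and mtDNA-encoded (triangles) subunits of each complex in every library, divided by the PSC mean; the DE means of the triangles of complexes IV and V are 0.825 and 0.762 of PSC, the lowest stage means, and the D2 and DE triangles of complex V overlap. Right, log2 CPM of replicate 2 minus replicate 1 for each tested member by complex and stage; in DE all points of complexes III, IV and V lie above 0, and 7 of the 9 assembly factors lie below it.

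Complexes I and II, the complex III assembly factors and the regulators were counted in the same way, again beside 35.1% higher and 32.7% lower of all genes. Of the 37 nuclear complex I subunits, 10 were higher and 6 lower in DE against PSC, with a median log2 fold change of 0.02 and a sum of 2961 and 2700 CPM in PSC and 2482 and 2977 in DE. Without DE replicate 1 they were 14 and 5, and without DE replicate 2 they were 5 and 11. The highest of the called subunits were *NDUFA7*, *NDUFA8* and *NDUFB3*, accessory subunits, and the lowest were *NDUFV2*, an iron-sulfur subunit of the arm that takes up NADH, *NDUFA5* and *NDUFA9*. *NDUFA5* had 241.5 and 203.3 CPM in PSC, 225.2 and 215.1 at D2, and 106.4 and 105.0 in DE, a log2 fold change against PSC of -1.07 ± 0.101 (edgeR, adjusted p = 2.7e-10). *NDUFV2* had 8.83 and 5.33 CPM in PSC, 2.23 and 2.97 at D2, and 2.25 and 2.57 in DE. *NDUFA9* had 13.6 and 12.9 CPM in PSC, 6.88 and 8.59 at D2, and 6.75 and 8.93 in DE. *NDUFV2* and *NDUFA9* were also called lower in D2 against PSC, and *NDUFA5* was not. *NDUFB3* had 54.6 and 50.9 CPM in PSC, 58.0 and 54.5 at D2, and 71.7 and 85.6 in DE. *NDUFA8* had 38.7 and 33.5 CPM in PSC, 50.4 and 43.2 at D2, and 48.8 and 59.5 in DE. *NDUFA7* stayed under 2 CPM, with 0.437 and 0.771 in PSC, 1.96 and 1.68 at D2, and 1.64 and 1.54 in DE, and its call was lost without PSC replicate 1.

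Of the 4 complex II subunits 2 were higher and 2 were lower, with 2 and 1 without DE replicate 1 and 1 and 1 without DE replicate 2. The membrane anchors went in opposite directions. *SDHC* had 80.6 and 88.3 CPM in PSC, 80.7 and 85.3 at D2, and 140.8 and 143.0 in DE (log2 fold change 0.75), while *SDHD* had 104.6 and 104.7 CPM in PSC, 102.8 and 101.1 at D2, and 66.6 and 66.9 in DE (-0.65). *SDHB*, the iron-sulfur subunit, had 85.9 and 82.3 CPM in PSC, 100.6 and 101.2 at D2, and 94.2 and 116.3 in DE, a call lost without PSC replicate 2 or DE replicate 2 and under upper-quartile scaling. *SDHA*, the flavoprotein, had 3.41 and 3.02 CPM in PSC, 2.95 and 2.91 at D2, and 1.88 and 1.86 in DE, a call lost under DESeq2 and without either DE library or PSC replicate 1. *SDHA* has pseudogene copies, which makes its level uncertain.

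Of 8 complex III assembly factors 2 were higher and 4 lower in DE against PSC, with 1 and 3 without DE replicate 1 and 2 and 3 without DE replicate 2. *UQCC2*, which acts on newly made cytochrome b, had 42.5 and 42.8 CPM in PSC, 40.5 and 34.7 at D2, and 59.9 and 77.8 in DE (log2 fold change 0.69). *LYRM7*, a chaperone of the Rieske protein, had 24.6 and 19.9 CPM in PSC, 22.9 and 23.6 at D2, and 13.9 and 13.4 in DE (-0.69). Both genes changed in DE with no call lost under any setting. *SMIM4* had 10.4 and 11.2 CPM in PSC, 9.56 and 9.56 at D2, and 7.42 and 7.58 in DE (-0.53). *UQCC3* had 2.97 and 3.53 CPM in PSC, 2.88 and 3.42 at D2, and 5.59 and 4.43 in DE, and *C16orf91* had 6.21 and 5.59, 4.26 and 2.71, and 3.89 and 4.17. The calls of *UQCC3* and *C16orf91* were lost under DESeq2 and without DE replicate 1 or PSC replicate 1, and that of *C16orf91* also without DE replicate 2 or PSC replicate 2.

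Among 14 tested regulators of mitochondrial genes 3 were higher and 6 were lower in DE against PSC. *ESRRG*, an estrogen-related receptor, had 0.612 and 0.642 CPM in PSC, 1.64 and 1.16 at D2, and 2.01 and 2.06 in DE. *PPARGC1B*, a coactivator of such receptors, fell from 19.9 and 18.1 CPM to 6.09 and 8.27 at D2 and 2.01 and 2.44 in DE, a log2 fold change against PSC of -3.09 ± 0.194 (edgeR, adjusted p = 4.9e-14). The related coactivator gene *PPARGC1A* was lower as well, with 3.67 and 3.72 CPM in PSC, 2.36 and 2.13 at D2, and 1.95 and 1.99 in DE. The stages of the 3 genes did not overlap. *POLRMT*, the RNA polymerase of mtDNA, had 22.0 and 21.6 CPM in PSC, 19.8 and 17.8 at D2, and 13.4 and 12.8 in DE. *GABPB1*, which encodes a partner of the ETS factor GABPA, had 42.8 and 42.6 CPM in PSC, 37.0 and 37.3 at D2, and 54.2 and 57.6 in DE, a call lost under upper-quartile scaling. *CHCHD2* had 52.4 and 48.8 CPM in PSC, 59.7 and 54.1 at D2, and 58.3 and 71.7 in DE, a call lost under the same scaling and without DE replicate 2 or PSC replicate 2.

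Because many respiratory chain genes are known to carry sites for NRF1 and for ETS factors such as GABP near their start, the promoters were searched for short motifs. RefSeq promoters (GRCh38.p14, 250 bases before to 50 after the start) were given for 41 of the 50 members, and 9 letter patterns were searched on both strands. The NRF1 core (GCGC, any base, TGCGC) was found in 11 of the 41 members (26.8%) and in 6.98% of all 27305 genes with a promoter. The ETS core CCGGAAG was found in 17 (41.5%) and in 12.2% of all genes. The GC box GGGCGGG was found in 34.1% and in 36.7% of all genes, and the estrogen-related receptor site TCAAGGTCA in 0 members and 0.432% of all genes. A YY1 pattern, AAGATGGCG, was in 7.32% of the members and 2.14% of all genes. The NRF1 pattern was also searched in a strict form with A as the middle base (7.32% against 1.52%), as CATGCGCA (9.76% against 2.57%) and in a long form, TGCGCA, any base, GCGC (9.76% against 3.31%), and the ETS pattern as ACCGGAAG (4.88% against 2.62%), and these overlap with the cores. A match is a run of letters and not a bound site. The background holds every gene with a promoter, whether or not it passed the filter on low counts, whereas most members passed it. The members were not compared with expressed genes alone.

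Stretches of 60 bases around a match are shown for members that moved in DE, on the strand of the gene, with the match in capitals. The first 2 belong to genes that rose and hold the NRF1 core, and the next 3 to genes that fell and hold the ETS core. The stretch of *UQCRC1* lies before the RefSeq start but inside the GENCODE bounds of the gene given above. That of *COX20* lies upstream of the GENCODE start of the gene at chr1:244835616. It comes from 1 of several RefSeq promoters of *COX20*, and the others did not hold the ETS core.
UQCRC1 at chr3:48609659-48609718, minus strand: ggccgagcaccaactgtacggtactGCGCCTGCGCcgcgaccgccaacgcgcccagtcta
COX17 at chr3:119677488-119677547, minus strand: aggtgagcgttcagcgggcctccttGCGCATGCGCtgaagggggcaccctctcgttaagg
UQCRH at chr1:46303626-46303685, plus strand: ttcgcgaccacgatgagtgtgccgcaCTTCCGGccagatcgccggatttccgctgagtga
ATP5PD at chr17:75047037-75047096, minus strand: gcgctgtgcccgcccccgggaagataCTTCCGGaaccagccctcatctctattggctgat
COX20 at chr1:244835109-244835168, plus strand: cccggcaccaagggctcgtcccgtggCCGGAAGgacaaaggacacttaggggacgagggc
The NRF1 core was found in 3 of the 11 promoters of members higher in DE, in 1 of the 6 of lower members and in 6 of the 20 of members not called. The ETS core was found in 5 of the 11, 3 of the 6 and 9 of the 20. *COX17* holds both patterns, and *COX18*, which fell, holds the NRF1 core as well.

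Of the 45 tested members, 15 were called in no comparison, as were 17.5% of all genes. Only *ATP5F1E* and *COX17* were higher in all 3, a pattern of 8.89% of all genes, and the call of *COX17* against D2 was lost without DE replicate 2. *ATP5F1A*, *ATP5F1B*, *ATP5MC2*, *UQCR11* and *UQCRFS1* were lower at D2 and higher again in DE against D2, with no call in DE against PSC, as were 3.56% of all genes. *ATP5PB*, *ATP5PD*, *COX18*, *COX20* and *UQCRH* were called lower in DE against both earlier stages and not at D2 (10.7% of all genes), and *ATP5F1D*, *ATP5MF*, *COX19*, *COX7A1* and *UQCRC1* were called higher in the same way (12.4%). Since these sorts rest on which side of a threshold each comparison fell, and the comparisons share libraries, they are given as counts with no test.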

How the data were processed

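RNA of HUES8 cells was sequenced in 2 libraries for each of 3 stages, PSC, D2 and DE. The authors aligned the reads to hg38 with HISAT2 2.1.1 and used featureCounts. The deposited table holds their raw read counts by gene symbol and a gene length in bases. The annotation, the strand setting and the treatment of multi-mapping reads are not given in the sources used here. Counts were tested with edgeR 4.0.16 in R 4.3.3 (filterByExpr, TMM with factors of 0.926 to 1.06, glmQLFit and glmQLFTest on the 6 libraries, 3 residual degrees of freedom) with Benjamini-Hochberg adjustment over 18126 genes, and fold changes are edgeR's. The fit was tested on simulated data for DE against PSC: 199 of 200 changed genes were called, with 16 others, among 18126. The simulation gave all genes the same spread, and its changed genes had fold changes of at least 2. It therefore does not show how well smaller changes, such as those of most members, are called. The 2 libraries of a stage differed beyond counting noise (chi-square over its degrees of freedom: 3.95 for PSC, 3.98 for D2, 8.47 for DE). The labels give the stages shared replicate numbers, and nothing states that same-numbered libraries belong together.

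Alternatives were DESeq2 1.42.0, other scalings and filters, a length correction, a block for the replicate number, 2 stages alone, a rule of 2-fold in TPM, and each library left out. TPM (+ 0.1, with a mean above 2) was computed from counts and lengths. Canonical transcript lengths from GENCODE version 44 were added after the data were seen. The members and lists were chosen with earlier results of these data known. Values per library are given for the 5 highest and 5 lowest members in DE against PSC among those called with all 4 pairs of libraries in 1 direction, the 3 highest and lowest in the other comparisons, the isoforms, and the most abundant gene per kb of each complex; of each other list of subunits, assembly factors and regulators, up to 3 highest and 3 lowest by the same rule. *COX5A*, *UQCRFS1* and *ATP5F1A*, outside this rule, were added after their values were seen. Figures used Python 3.11.15 and matplotlib 3.10.9. The remaining members are named so that all are accounted for, after their values were known.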

Additional observations from a re-analysis of the deposited data

How the results depend on the processing

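Of the members called, 11 of 23 in DE against PSC, 6 of 13 in D2 against PSC and 11 of 20 in DE against D2 kept their call under every setting that tested them, and no call changed direction. Upper-quartile scaling gave 6 higher and 10 lower (17 and 6 with TMM) in DE against PSC and 6 and 12 (13 and 7) in DE against D2, with 1 and 1 past 2-fold there (2 and 0). A correction for gene length gave 14 higher and 10 lower in DE against PSC, beside 35.4% and 32.8% of all genes. In D2 against PSC, library size gave 12 higher and the 2 stages alone 10 (6 in the joint fit). Of all genes 29.5% and 27.4% were higher there. The 2-fold TPM rule gave 5 higher and 0 lower in DE against PSC (4 and 1 past 2-fold in edgeR). Of all genes above its TPM limit, 26.4% were higher and 13.1% lower. Leaving out 1 library at a time, the counts were, in DE against PSC, 10 to 19 higher and 5 to 9 lower, and past 2-fold 3 to 5 higher and 0 to 1 lower; in D2 against PSC 4 to 8 higher and 3 to 7 lower, and 0 to 1 higher past 2-fold; in DE against D2 6 to 18 higher and 5 to 11 lower, and past 2-fold 2 to 3 higher and 0 to 1 lower. A lone library is then assumed to vary like the other stages. The fewest higher calls came without DE replicate 2 or PSC replicate 2 in DE against PSC (10 each), without DE replicate 2 in DE against D2 (6) and without PSC replicate 2 or D2 replicate 1 in D2 against PSC (4 each), where the fewest lower calls (3) came without D2 replicate 2. The difference of nuclear to mtDNA level in complex III (-0.33) was -0.05 by counts, 0.09 by the median and -0.42 by canonical length, and in complex IV (0.40) it was 0.10 by the median; without 1 library they ranged from -0.41 to -0.25 and from 0.32 to 0.48. The change in the *ATP5MC1* share (-8.08 percentage points) was -5.29 by counts and -6.85 by canonical length. That of *ATP5MC2* (1.78) was -0.998 and 3.11, and 0.57 to 2.99 without 1 library. That of *ATP5MC3* (6.30) was 3.74 by canonical length. The cause of these differences was not tested, apart from the replaced length or scaling itself.

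Over all tested genes, same-numbered libraries did not deviate together around their stage means (correlations of -0.0123, -0.0215 and -0.00781). With 2 libraries a stage, these values cannot settle whether same-numbered libraries belong together. With the replicate block, 15 members were higher and 5 lower in DE against PSC, beside 34.2% and 31.6% of all genes. In D2 against PSC they were 6 and 5, beside 24.4% and 22.5%. In DE against D2 they were 9 and 7, beside 28.9% and 28%. *COX6B2*, with 5 to 10 counts in a library, did not pass the filter on low counts.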
